A study of Mus musculus with 3 samples.

Results

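Plat, Plau, Plaur, Serpine2, Serpinf1, Serping1, Serpinh1, F3 and Thbd are 9 mouse genes of the plasminogen activators and their receptor, of the serpins, and of the cell surface regulators of coagulation. They were taken as the non-control probes whose gene name in the scanner files equals one of these symbols. This gave 15 probes of 41174, and the 9 genes stand among 27597 gene labels on the array. Plat had 3 probes, Plau, Plaur, Serpinf1 and F3 had 2 each, and the 4 other genes had 1.

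Cy3-labelled total RNA was measured on 3 Agilent 1-colour mouse arrays, 1 for each group. The first was embryonic fibroblasts (MEF) without p53, called p53-null fibroblasts (p53-null MEF in the plots), and the others were embryonic stem (ES) cells, and MEF given as p53 wild type. All 3 samples carried Nanog-GFP, a fluorescent reporter of the pluripotency gene Nanog. Strain, embryo age, passage, the part of Trp53 that is missing and any pooling of embryos are not given in the sources used here.

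Spot signals had a 75th percentile of 1040 units for p53-null fibroblasts, 834 for ES cells and 829 for MEF, and the arrays were scaled to it. No spot was saturated. Trp53, the gene that encodes p53, gave 56.2 units in p53-null fibroblasts, 4900 in ES cells and 1304 in MEF at its brighter probe, so it was 29.1-fold lower in p53-null fibroblasts than in MEF. Its second probe differed by -1.46 between the fibroblasts and by -0.92 between ES cells and MEF, where the brighter probe differed by 1.90. All 10 fibroblast markers were well above background on every array, ES cells included. Their summed signal was 829157 units in p53-null fibroblasts, 72714 in ES cells and 917458 in MEF. The ES cell markers Pou5f1, Nanog, Zfp42 and Esrrb stayed at background in both fibroblast samples. Sox2 (99.1 units in p53-null fibroblasts and 122 in MEF) and Dppa5a (196 and 554) were well above it in both. Tdgf1 was at background in p53-null fibroblasts and well above it in MEF, at 41.8 units. All 7 ES cell markers on the array were well above background in ES cells. ES cells and MEF shared a slide, and the p53-null array was on a different one with its own scan time. Xist, the RNA of the inactive X chromosome, gave 7437 units in p53-null fibroblasts and 2.78 in MEF, and the Y-linked gene Eif2s3y gave 4.07 units in p53-null fibroblasts and 1236 in MEF, the low signals being at background. Slide, scan, embryo sex and p53 genotype therefore cannot be told apart between the fibroblast arrays.

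Plasminogen is a circulating zymogen that tissue-type and urokinase-type activators cleave to plasmin, a protease that dissolves fibrin and degrades matrix at the cell surface. Serpins are protease inhibitors that mostly act by a suicide mechanism, in which the protease cuts an exposed loop and becomes trapped, although some serpins have lost this activity. Tissue factor starts coagulation where cells meet plasma, and thrombomodulin turns thrombin from a clotting enzyme into an activator of protein C. Fibroblasts are a common source of secreted serpins and of plasminogen activators.

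With 1 array per group no test between samples was possible, and every difference below describes these 3 arrays. A difference is on the log2 scale of the scaled signals, and its error is that of the scanner software's error model, which sets about 10% on a bright signal. Where 1 array was not well above background, the difference is a bound. A gene so bounded cannot come out higher on the dim array. Counts and medians over labels and lists include bounds. A gene with several probes stands by the one with the highest mean log2 signal. In such bulk samples, fewer cells of a type and less RNA per cell cannot be told apart.

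In p53-null fibroblasts, 5 of the 9 genes were at least 2-fold lower than in MEF, namely Serpine2, Serping1, Thbd, F3 and Serpinf1, and 0 were at least 2-fold higher. Among all 17402 gene labels compared, 16.6% were at least 2-fold lower and 18.6% at least 2-fold higher. The 9 genes had a median difference of -1.01, and all labels had a median of 0.03. The 4 genes within 2-fold were Plat, Plau, Plaur and Serpinh1. Serpinf1, at 2.02-fold lower, stood just inside the 2-fold limit, and Serpinh1, at 1.71-fold higher, just outside. In ES cells, 8 of the 9 genes were at least 2-fold lower than in MEF, all but Plaur, and 0 were at least 2-fold higher. Over all 18746 labels in that comparison, 27.1% were at least 2-fold lower and 32.7% at least 2-fold higher. The median of the 9 genes was -4.35, and that of all labels 0.20.

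**Figure D1:**
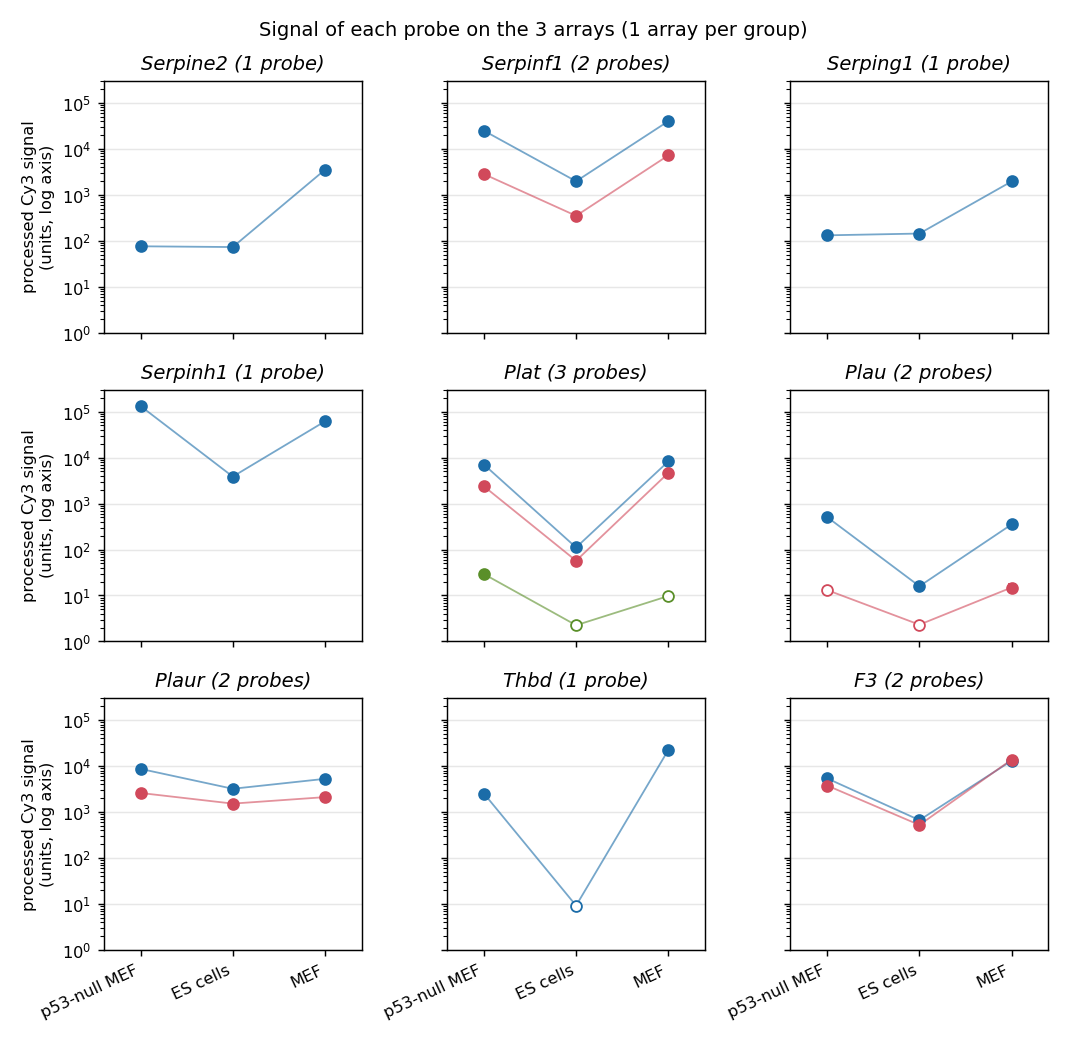
Processed Cy3 signal of each probe of the 9 genes (vertical log axis, units) on the p53-null, ES cell and MEF arrays, with each probe in its own colour. Filled points are well above background and carry the error model's error, mostly smaller than the point, and open points are not well above background. Serpine2 has 76.4 units in p53-null fibroblasts and 73.6 in ES cells against 3525 in MEF, while Plaur stays between 1531 and 8701 units over both of its probes.

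The activator genes were far lower in ES cells than in MEF, while between the fibroblasts their brightest probes lay within 2-fold. The fibroblast differences were 1.43 for Plat and 2.17 for Plau with scaling on spike-ins. Plat encodes tissue-type plasminogen activator, the main activator in fibrin dissolution. Its brightest probe, at chr8:24248165-24248225 of mouse build mm8, gave 7039 units in p53-null fibroblasts, 111 in ES cells and 8216 in MEF. Both fibroblast arrays were high at this probe and the ES cell array was low. The difference was -0.55 ± 0.20 for p53-null fibroblasts against MEF and -6.22 ± 0.21 for ES cells against MEF, which is 74.7-fold lower in ES cells.

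A second Plat probe, at chr8:24247604-24247663, gave 2366 units in p53-null fibroblasts, 57.0 in ES cells and 4627 in MEF. It was 2.45-fold lower in p53-null fibroblasts and 81.7-fold lower in ES cells than in MEF. For the fibroblast pair, these 2 probes lay on either side of the 2-fold limit, 0.74 apart on the log2 scale. The third Plat probe was designed on a cDNA clone, AK053476, and lies at chr8:24241374-24241433, upstream of the other two on the plus strand. It gave 29.2 units in p53-null fibroblasts and was not well above background in ES cells (2.26 units) or MEF (9.73 units). In p53-null fibroblasts it exceeded MEF at least 1.88-fold, opposite in sign to the other probes of the gene but near the background.

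Plau encodes urokinase-type plasminogen activator, which acts mainly on cell surfaces. Its brighter probe, at chr14:19631572-19631631, gave 505 units in p53-null fibroblasts, 15.9 in ES cells and 351 in MEF. The fibroblast arrays differed by 0.20 ± 0.20, no more than the error. ES cells were 22.2-fold lower than MEF, by -4.47 ± 0.29, with a signal near 10.1 units, the lowest well above background on that array. The difference was -2.50 with normexp correction and -2.52 with the mean of both probes. The other Plau probe, whose 60 bases align over 367 bases at chr14:19629185-19629551, gave 13.1 units in p53-null fibroblasts, 2.32 in ES cells and 14.9 in MEF. Of these only the MEF signal was well above background, so this probe bears little on either comparison.

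Plaur encodes the urokinase receptor, a membrane-anchored protein that holds the enzyme at the cell surface. Its brighter probe, at chr7:24184310-24184369, gave 8701 units in p53-null fibroblasts, 3217 in ES cells and 5293 in MEF. It differed by 0.39 ± 0.20 between p53-null fibroblasts and MEF and by -0.73 ± 0.20 between ES cells and MEF. The second probe, at chr7:24183056-24183115, gave 2605 units in p53-null fibroblasts, 1531 in ES cells and 2117 in MEF, with differences of -0.03 and -0.48. Plaur was thus the gene of the 9 with the smallest difference between ES cells and MEF, and the receptor was well above background in ES cells, where Plau was 15.9 units.

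Serpine2 encodes protease nexin-1, a secreted inhibitor of thrombin, urokinase and plasmin. It had the largest difference of the 9 genes between the fibroblasts. Its single probe gave 76.4 units in p53-null fibroblasts, 73.6 in ES cells and 3525 in MEF. The MEF array was thus high and the other 2 were alike in these units. Those 2 signals were dim, with spot means 2.65 (p53-null fibroblasts) and 3.51 (ES cells) times the local background. Serpine2 was 57.9-fold lower in p53-null fibroblasts, by -5.85 ± 0.22, and 48.2-fold lower in ES cells, by -5.59 ± 0.21. ES cells minus p53-null fibroblasts came to 0.26 ± 0.22, in a comparison across slides. With scaling on spike-ins ES cells were instead lower than p53-null fibroblasts. Serpine2 then differed from MEF by -3.88 in p53-null fibroblasts and by -5.35 in ES cells. Among 15029 labels measured on both fibroblast arrays, 6 including Serpine2 were as low or lower. The probe lies on the minus strand at chr1:79675925-79678542 of mm8, on transcript NM_009255. Its 60 bases align over 2618 bases of the genome, so they are split between separate blocks of the gene. It is shown because the largest difference among these genes rests on it alone.
Serpine2 probe: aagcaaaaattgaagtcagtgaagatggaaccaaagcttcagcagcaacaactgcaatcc

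Serpine2 is also made by glial cells, and glial and neural crest markers differed in the same direction. All 6 of those markers compared between the fibroblasts, bounds included, were at least 2-fold lower in p53-null fibroblasts, with a median of -2.39. Their summed signal over the 7 on the array was 702 units in p53-null fibroblasts, 4750 in ES cells and 5091 in MEF. Sox10 and Foxd3 were not well above background in p53-null fibroblasts. The part of such cells in the Serpine2 difference was not tested. Of these, S100b gave 551 units in p53-null fibroblasts, 12.3 in ES cells and 3664 in MEF. Ngfr gave 19.3, 2049 and 948 units in the same order, while its second probe differed by -0.42 between the fibroblasts. With scaling on spike-ins 3 of the 6 were at least 2-fold lower.

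Serping1 encodes C1 inhibitor, the serpin that blocks the first complement proteases and plasma kallikrein. Its single probe, at chr2:84566650-84568156, gave 132 units in p53-null fibroblasts, 145 in ES cells and 1965 in MEF. As for Serpine2, only the MEF array was high. Serping1 was 18.6-fold lower in p53-null fibroblasts, by -4.22 ± 0.21, and 13.7-fold lower in ES cells, by -3.77 ± 0.21. ES cells exceeded p53-null fibroblasts by 0.45 ± 0.21, in a comparison across slides. With scaling on spike-ins this order was reversed. Serping1 then differed from MEF by -2.24 in p53-null fibroblasts and by -3.53 in ES cells. The probe's 60 bases align over 1507 bases.

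Serpinf1 encodes pigment epithelium-derived factor, a secreted serpin without inhibitory activity that restrains blood vessel growth. Its brighter probe, at chr11:75226261-75226320, gave 24917 units in p53-null fibroblasts, 1982 in ES cells and 40122 in MEF. It was 2.02-fold lower in p53-null fibroblasts, by -1.01 ± 0.20, and 20.4-fold lower in ES cells, by -4.35 ± 0.20. With median scaling the fibroblast difference was -0.97 and with normexp correction -0.93, so the 2-fold call depends on such choices. A second probe, at chr11:75231856-75231915, gave 2839 units in p53-null fibroblasts, 352 in ES cells and 7225 in MEF. It was 3.19-fold lower in p53-null fibroblasts and 20.7-fold lower in ES cells than in MEF. The probes were 0.66 apart between the fibroblasts and 0.02 apart between ES cells and MEF.

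Serpinh1 encodes Hsp47, a serpin of the endoplasmic reticulum that binds procollagen as a chaperone and inhibits no protease. Its single probe, at chr7:99219542-99219603, gave 131477 units in p53-null fibroblasts, 3849 in ES cells and 61161 in MEF. Of the 4 serpins described it alone was higher in p53-null fibroblasts, by 0.78 ± 0.20, except with scaling on spike-ins, where Serpinf1 was higher too. It was 16.0-fold lower in ES cells than in MEF. Without scaling between arrays the fibroblast difference was 1.10, past the 2-fold limit. Genes that fold and secrete collagen with it had a median of -0.38, with 6 of 26 at least 2-fold lower in p53-null fibroblasts and 1 at least 2-fold higher. Scaled on spike-ins, the list had a median of 1.59, with 0 lower and 20 higher. Over all labels that scaling gave a median of 2.01, with 1.57% lower and 78.8% higher. The gene higher with the 75th percentile scaling was Hsp90b1, a chaperone of the same compartment, at 2.51-fold. The collagen lysyl hydroxylase gene Plod1 was 3.36-fold lower, the prolyl isomerase gene Fkbp14 3.25-fold and the prolyl hydroxylase gene P4ha3 2.59-fold. In ES cells 19 of the 26 were at least 2-fold lower than in MEF and 0 higher, led by P3h3 at 28.2-fold, P4ha3 at 23.2-fold or more and Bmp1 at 22.0-fold.

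F3 encodes tissue factor, the membrane receptor of factor VII that starts coagulation. Its brighter probe, at chr3:121726440-121726499, gave 5392 units in p53-null fibroblasts, 669 in ES cells and 13105 in MEF. F3 was 3.05-fold lower in p53-null fibroblasts, by -1.61 ± 0.20, and 19.7-fold lower in ES cells, by -4.30 ± 0.20. The second probe, at chr3:121726400-121726459, gave 3775 units in p53-null fibroblasts, 525 in ES cells and 13863 in MEF, which is 4.61-fold lower in p53-null fibroblasts and 26.6-fold lower in ES cells. Both probes ranked MEF highest and ES cells lowest.

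The F3 probes overlap by 20 bases in the genome, so they do not measure separate parts of the transcript. They are printed because their letters disagree within that overlap. Of the 20 shared positions 18 are identical and 2 differ, T9G and G15C, with the brighter probe's base first and positions counted from its 5′ end. Capitals mark these bases. Which letters match the transcript was not determined here.
F3 brighter probe: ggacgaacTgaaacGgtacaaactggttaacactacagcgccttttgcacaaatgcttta
F3 second probe: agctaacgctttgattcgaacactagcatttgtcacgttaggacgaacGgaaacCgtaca

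Thbd encodes thrombomodulin, the thrombin receptor that promotes activation of protein C. Its single probe, at chr2:148095940-148095999, gave 2535 units in p53-null fibroblasts and 22359 in MEF, and 9.25 units in ES cells, where it was not well above background. Thbd was 11.1-fold lower in p53-null fibroblasts, by -3.47 ± 0.20, and at least 2228-fold lower in ES cells than in MEF. The 3 arrays were far apart, with p53-null fibroblasts in between. Among 15029 labels, 107 including Thbd were as low or lower between the fibroblasts.

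Thbd, F3 and Plaur are also expressed by endothelium and macrophages, so the markers of those cells were read on the same arrays. The endothelial markers Pecam1, Cdh5 and Cldn5 were at background on both fibroblast arrays. Kdr, Tek, Emcn, Esam, Vwf and Egfl7 were well above background on both. Of 7 endothelial markers compared between these arrays, bounds included, 3 were at least 2-fold higher and 1 lower in p53-null fibroblasts. The summed signal of the 10 was 3198 units in p53-null fibroblasts, 5547 in ES cells and 1481 in MEF. Egfl7 alone gave 2332, 3619 and 904 units of these sums in the same order. Of 10 macrophage markers, 4 were well above background in p53-null fibroblasts, 4 in ES cells and 7 in MEF. Their summed signal was 623 units in p53-null fibroblasts, 642 in ES cells and 2523 in MEF, of which the lysozyme gene Lyz2 gave 126, 62.2 and 1980 units in the same order, with its second probe at -0.51 between the fibroblasts. Ptprc, the surface marker shared by white blood cells, gave 37.4 units in p53-null fibroblasts and was at background in ES cells and MEF. The part of macrophages in these differences was not tested.

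**Figure D2:**
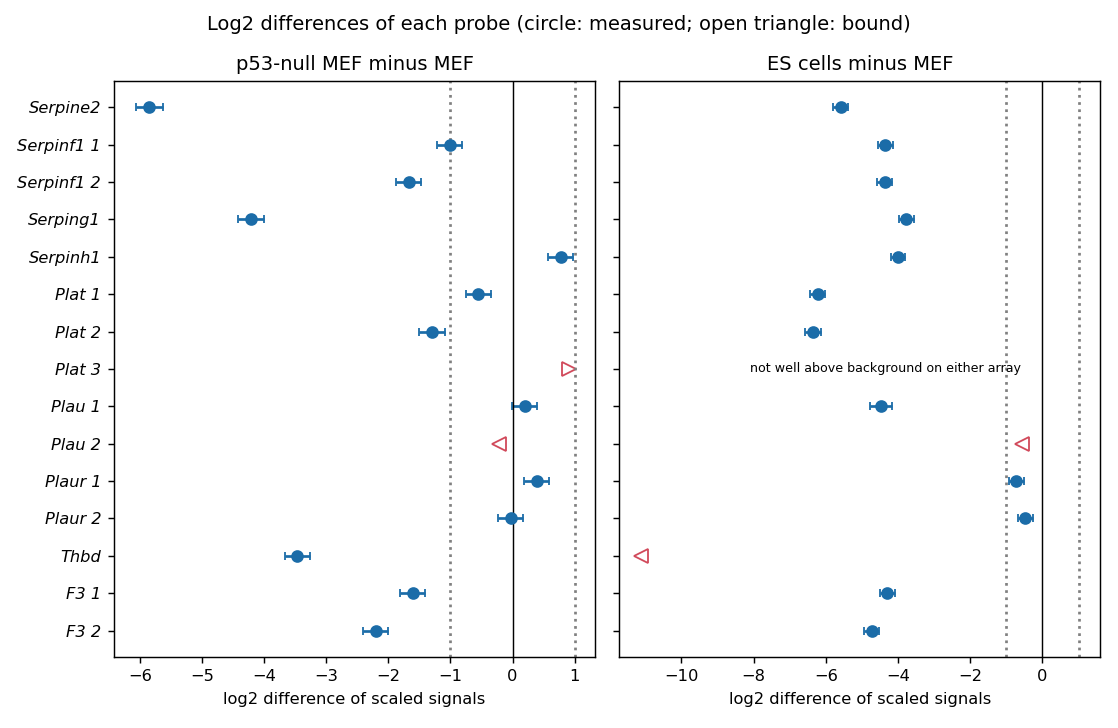
Log2 difference of scaled signals (horizontal axis) for each of the 15 probes, p53-null fibroblasts minus MEF on the left and ES cells minus MEF on the right, with probes of a gene numbered from the brightest. Circles carry the error model's error, open triangles are bounds and dotted lines mark 2-fold. On the left the probes reach from -5.85 for Serpine2 to 0.91 for the third Plat probe, and on the right every plotted value lies below 0.

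Scaling changes the position of all genes between the fibroblast arrays. The 7 spike-in probes (E1A) averaged 5662 units for p53-null fibroblasts, 15148 for ES cells and 17756 for MEF, so scaling on them raised each measured fibroblast difference by 1.98, with bounds moving by other amounts, and moved the median of all labels to 2.01. Under that scaling 3 of the 9 genes were at least 2-fold lower in p53-null fibroblasts (Serpine2 at -3.88, Serping1 at -2.24 and Thbd at -1.49) and 4 were at least 2-fold higher. Over all labels the same scaling gave 1.57% at least 2-fold lower and 78.8% at least 2-fold higher. Serpinf1, F3 and Plat changed sign, to 0.96, 0.37 and 1.43. The median of the 9 genes was 0.96 there. Its distance from the median of all labels was -1.05 in both scalings by construction, since both medians moved by the same 1.98. For ES cells against MEF, on 1 slide, the same scaling raised each measured difference by 0.24, and all 9 genes remained lower in ES cells.

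**Figure D3:**
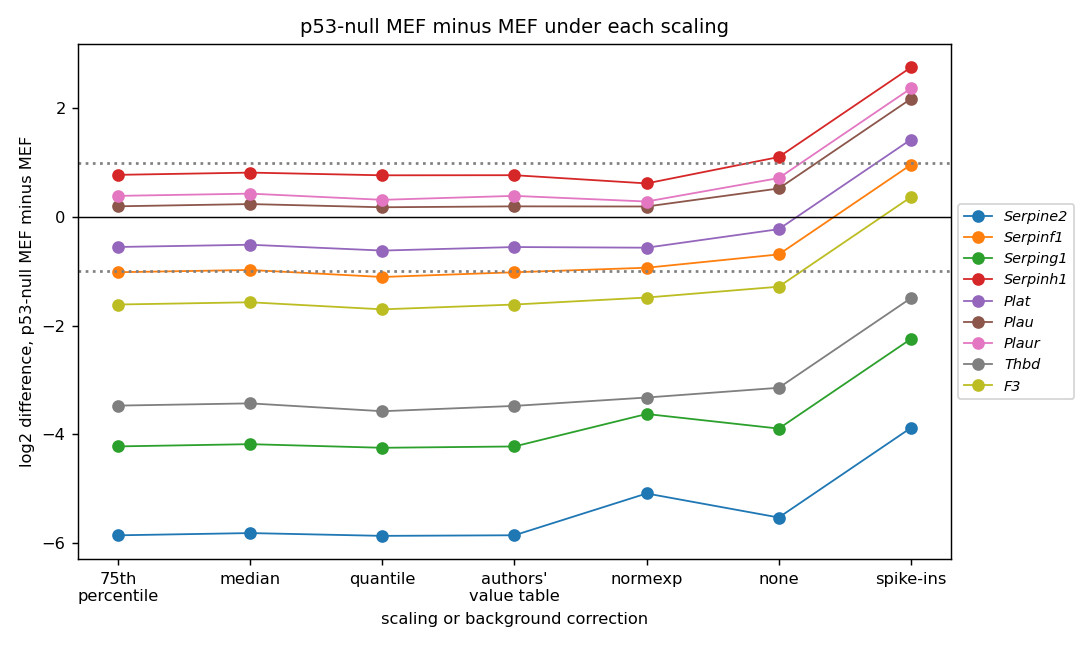
Log2 difference of p53-null fibroblasts minus MEF (vertical axis) for the 9 genes under each scaling or background correction (horizontal axis), with dotted lines at 2-fold. Serpine2, Serping1 and Thbd lie below -1 in every setting, and Serpinf1, F3 and Plat cross 0 with scaling on spike-ins.

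The other genes of these pathways were read from lists. Their counts with scaling on spike-ins are to be read beside those of all labels between the fibroblasts. There 1.57% were at least 2-fold lower and 78.8% higher, with a median of 2.01. Plg, the gene for plasminogen itself, was not well above background on any of the 3 arrays. Serpinb2, a serpin that inhibits urokinase, was at 81.3 units in p53-null fibroblasts, 32.1 in ES cells and 76.6 in MEF.

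Among the other plasminogen and fibrinolysis genes, 6 of 15 compared were at least 2-fold lower in p53-null fibroblasts and 1 at least 2-fold higher. The median was -0.84. With scaling on spike-ins the median was 1.14, with 0 lower and 9 higher. Lrp1, the receptor that clears activator-inhibitor complexes, was 2.91-fold lower, although its second probe was higher by 1.0 on the log2 scale. The collagen receptor gene Mrc2, whose product binds the urokinase receptor, was 3.54-fold lower, with its probes from -3.92 to -0.73. Klf2, an endothelial regulator of anticoagulant genes, was 3.65-fold lower, with another Klf2 probe at -0.07. In ES cells 9 of 14 were at least 2-fold lower than in MEF and 1 higher, with a median of -1.46. Mrc2 was 52.5-fold, Lrp1 45.6-fold and the plasminogen-binding annexin gene Anxa2 18.9-fold lower there, and Cpb2, a fibrinolysis inhibitor, was 3.75-fold higher. The second Lrp1 probe differed by -2.00 between ES cells and MEF.

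Among the other coagulation genes, 7 of 19 were at least 2-fold lower in p53-null fibroblasts and 1 at least 2-fold higher, with a median of -0.66. On the spike-in scale the median was 1.21, with 0 lower and 10 higher. Gas6, a vitamin K-dependent ligand, was 5.06-fold lower, and F13a1 and F5 at least 4.26-fold and 2.72-fold. The protease-activated receptor gene F2rl1 was 3-fold higher or more. The thrombin receptor gene F2r and the protein C receptor gene Procr differed by -0.42 and -0.43, within 2-fold, beside the 11.1-fold lower Thbd. Tfpi, the inhibitor of tissue factor, was 2.57-fold lower, with its probes from -2.00 to -0.96. In ES cells 9 of 20 were at least 2-fold lower than in MEF and 5 higher, with a median of -0.79. Over all labels 27.1% were at least 2-fold lower and 32.7% higher. Gas6 was 29.7-fold, Procr 10.2-fold and the protein S gene Pros1 7.94-fold lower, while the von Willebrand factor gene Vwf was 19.2-fold, Proc 16.5-fold and the prothrombin gene F2 at least 16.1-fold higher.

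The other serpins had more members lower than higher in both comparisons. Of 23 compared between the fibroblasts, bounds included, 16 were at least 2-fold lower in p53-null fibroblasts and 2 higher, with a median of -1.38. Several of the lower ones were bounds, at background in p53-null fibroblasts, and could not have come out higher there. With scaling on spike-ins 5 were lower and 6 higher. Serpina3n was at least 35.9-fold lower, Serpinb1c 17.9-fold and Serpinb1b at least 14.4-fold, and the neural serpin gene Serpini1 was 2.93-fold higher. Another probe of Serpinb1c differed by -0.67. Serpinb1 and Serpina3 genes have close copies, so their probes may share targets. Of 24 in ES cells, 17 were at least 2-fold lower than in MEF and 2 higher, with Serpina3g at 333-fold and Serpinb1a at 75-fold lower, and Serpinb1c at least 59.6-fold. Serpini1 was 16.8-fold and Serpina3m 2.66-fold higher.

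Complement genes, which Serping1 restrains, were lower by at least 2-fold in p53-null fibroblasts for 12 of 25 and higher for 1, with a median of -0.88 (0.16 with scaling on spike-ins, with 4 lower and 7 higher). Cfb was at least 12.3-fold lower and C3 9.12-fold, while Cfp, the properdin gene, was 4.65-fold higher. In ES cells 14 of 25 were at least 2-fold lower than in MEF and 2 higher. The protease gene C1ra was 82.2-fold lower, Colec12 44.2-fold and Masp1 43.0-fold, while Masp2 was 9.95-fold higher, with another probe at -0.39, and Cfp 4.04-fold.

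Proteases and inhibitors that act beside plasmin on the matrix had 9 of 14 genes at least 2-fold lower in p53-null fibroblasts and 0 higher, with a median of -1.54. With scaling on spike-ins the median was 0.12, with 2 lower and 4 higher. St14, the matriptase gene, was at least 17.2-fold lower, Mmp13 13.7-fold and Mmp2 5.80-fold. In ES cells 11 of 15 were at least 2-fold lower than in MEF and 2 higher, with Mmp13 at least 102-fold, Mmp3 50.7-fold and Adamts1 38.2-fold lower, and the transmembrane serine protease genes Hpn 12.2-fold and St14 10.4-fold higher.

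**Figure D4:**
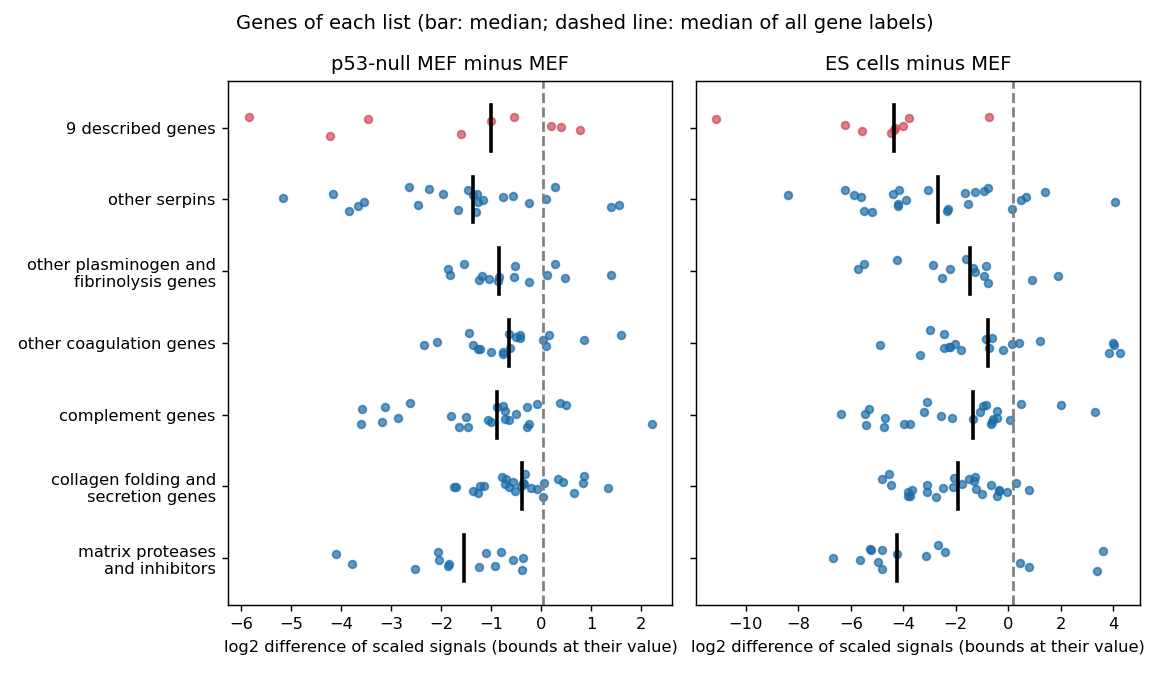
Log2 difference of scaled signals (horizontal axis) of each gene (points) in the 9 described genes and 6 lists (rows), p53-null fibroblasts minus MEF on the left and ES cells minus MEF on the right, with bounds at their value. Black bars are medians and the dashed line is the median of all gene labels. Medians run from -1.54 to -0.38 on the left and from -4.35 to -0.79 on the right.

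Genes whose 2 differences from MEF were nearest to those of a member were sought among 12355 labels that were matched to RefSeq and well above background on all 3 arrays. Nearness was the Euclidean distance over those differences, which share the MEF array, and 3 arrays are few. Thbd was left out, being below background in ES cells. The nearest to Serpine2 were Cdkn1a, at a distance of 0.92 with 335 units in p53-null fibroblasts, 523 in ES cells and 13473 in MEF, and Ephx1, also at 0.92. The nearest to Serping1 were Krt14 at 0.24 and Nkain4 at 0.38. Serpinh1 had Inhba at 0.06 and Gulp1 at 0.11, Plat had Fzd1 at 0.16 and Pcdha9 at 0.17, and Plau had Casp12 at 0.10 and Adcyap1r1 at 0.11. F3 had Tmbim1 at 0.07 and Adra2a at 0.11, Serpinf1 had Ptgs1 and Apol9b at 0.03 each, and Plaur had Tmem128 at 0.01 and Sipa1l1 at 0.04.

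Promoters of 5 of the 9 genes, Serpine2, Serpinf1, Serpinh1, Plaur and F3, were matched by symbol in a RefSeq table of 32851 entries on build GRCm38.p6, each from 250 bases before to 50 after the start. The 4 motifs below were searched on both strands, with overlapping matches counted. The p53 half-site was found in none of the 5 and in 8.36% of all entries, and no match says only that these letters are not in the window. TGANTCA, the letters that AP-1 binds, was found 2 times for F3 and 1 time for Plaur, and in 7.81% of all entries. GGGCGG was found 6 times for Serpine2, 3 times each for F3 and Plaur, 1 time for Serpinh1 and not for Serpinf1, and in 35.7% of all entries. TATAAA was found 1 time, for F3, and in 13.6% of all entries. The F3 match lay after the start, from base 44, on the strand opposite to the gene. The Serpine2 promoter was 77.7% G and C, above 97.9% of all entries, while that of Serpinf1 was 50.7% and the median of all was 52.7%.

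The promoters of Serpine2 and F3 are shown as the genes lower in p53-null fibroblasts with the most matches, with GGGCGG in capitals for Serpine2 at chr1:79858616-79858915 on the minus strand, and TGANTCA in capitals for F3 at chr3:121723287-121723586 on the plus strand.
Serpine2 promoter: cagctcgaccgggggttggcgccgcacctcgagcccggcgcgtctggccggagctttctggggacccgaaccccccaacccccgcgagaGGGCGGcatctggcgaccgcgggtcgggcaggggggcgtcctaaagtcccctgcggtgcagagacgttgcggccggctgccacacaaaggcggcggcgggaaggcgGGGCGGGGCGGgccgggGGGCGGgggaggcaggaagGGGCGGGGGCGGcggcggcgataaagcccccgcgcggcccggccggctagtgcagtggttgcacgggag
F3 promoter: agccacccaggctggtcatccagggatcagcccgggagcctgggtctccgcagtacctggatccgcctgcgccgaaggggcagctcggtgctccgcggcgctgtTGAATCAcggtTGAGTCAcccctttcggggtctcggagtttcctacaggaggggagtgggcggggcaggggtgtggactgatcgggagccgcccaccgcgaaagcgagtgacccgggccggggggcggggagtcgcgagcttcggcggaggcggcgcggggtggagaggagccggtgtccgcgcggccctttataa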

How the data were processed

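Per the file headers, the authors' scanner files came from Agilent's Feature Extraction software (9.5.3.1) and give each spot's intensity, not logged. The processed intensity in them is background-subtracted and corrected for trends within the array, and is not scaled between arrays. The deposited value table of the series held the same intensity, with ratios to the scanner files from 0.995 to 1.005, on a linear scale with no centring, and column medians of 51.8 (p53-null MEF), 50.0 (ES cells) and 43.2 (MEF).

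Signals were taken to log2 and the 75th percentile of each array's 43379 non-control spots was taken off. Left out were control spots and 62 spots of p53-null MEF, 176 of ES cells and 192 of MEF that carried outlier marks. Spots of 1 probe were averaged. A probe counted as well above background if the scanner software marked 50% or more of its remaining spots so. For a bound, the dim side was its own signal or, if that was lower, the array's smallest well-above-background signal, which was 16.0, 10.1 and 12.4 units in the order p53-null MEF, ES cells, MEF. Genes count as different at 2-fold.

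Probes were named through RefSeq (GRCm38.p6, names only) by accession (24375), symbol (6301) or synonym (2426), and 8072 kept the file's name. Probe positions are those of the p53-null MEF file, on mm8, with no exon or UTR annotation of that build used here.

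Repeat spots of the 245 probes with 10 copies differed, where well above background, by a median of 3.62%, 3.32% and 4.30% (SD over mean, same order). The number of arrays limits the precision. The differencing was tested on simulated data. Normexp correction (offset 50) used limma 3.58.1. Each list was described by counts, its median and up to 3 genes per direction with the largest difference past 2-fold. The genes and lists were chosen with earlier results of these data known. A few genes of these lists are counted but not reported by name here.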

Additional observations from a re-analysis of the deposited data

How the results depend on the processing

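For p53-null MEF against MEF, the count of genes at least 2-fold lower was 5 and the count at least 2-fold higher was 0. With scaling on spike-ins these were 3 and 4, and without scaling between arrays 1 gene was at least 2-fold higher. The shift comes from the construction of those settings, which add 1.98 and 0.33 to each measured difference (bounds move by other amounts). Scaling on spike-ins also reversed Serpinf1 to 0.96 and F3 to 0.37, and turned Plat, within 2-fold before, to 1.43. The count of lower genes was 4 with median scaling, normexp correction or no scaling. It was 5 with quantile normalization, no filter on dim probes, the mean or median of a gene's probes, or the deposited value table. The dimmest probe with a value, bounds included, also gave 5 (a setting chosen after seeing the data). For ES cells against MEF, 8 genes were lower and 0 higher under all 9 alternatives chosen first, and 7 lower with the dimmest probe, where Plau had a bound of -0.57. With normexp correction Serpine2 differed by -5.08 between the fibroblasts, and in ES cells Thbd differed by -8.19 and Plau by -2.50. No paired analysis was possible because each group has 1 array. Over all gene labels, 2895 were at least 2-fold lower and 3234 higher between the fibroblasts (52.8% of calls higher), against 1906 and 4702 without scaling (71.2%), 274 and 13706 on spike-ins (98.0%), and 1886 and 2081 with normexp correction. Low signal limits Plau in ES cells and the third Plat probe. Serpine2 and Serping1 were also dim in p53-null fibroblasts and ES cells, so their fold sizes depend on the background correction. With normexp correction Serping1 differed by -3.62 between the fibroblasts and by -3.35 between ES cells and MEF. Leaving out a replicate was not possible.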
